A study of Mus musculus with 5 samples.

Results

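The genes described here are 34 mouse genes of mitosis and the G2/M transition, the step from DNA replication into cell division. They were taken by name from a table of RPKM, a level in which reads are divided by the gene's length and by the library's total, and all 34 were found among its 25873 named genes. The RNA came from tdTomato-positive, lineage-negative myogenic cells of C57BL/6J limb muscle, sorted by flow cytometry at embryonic day E16.5. The control group, WT (2 libraries), carried Pax7-CreER and Rosa-tdTomato and no floxed Notch allele. The Notch1 cKO group (1 library) carried Notch1 f/f in addition, and the Notch2 cKO group (2 libraries) carried Notch2 f/f in addition. All dams were given oral tamoxifen at 240 mg per kg for 2 days from E12.5, so every group, controls included, had the recombinase, the reporter and the drug. Recombination was limited to cells that made CreER from Pax7 and to their descendants, and the reporter marks recombination at Rosa, not at the floxed Notch alleles. The labels do not say whether libraries of a group came from separate fetuses or litters or from pooled animals, so their spread may be technical. P-values rest on that spread, taken mostly from all genes together, and the single Notch1 cKO library adds nothing to it. Each library is called by its group and the tag in its column name (WT Em2 and Em4, Notch1 cKO Em8, Notch2 cKO Em3 and Em4), and paired values follow that order.

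Mitosis is driven by Cdk1, a kinase that is active only when bound to cyclin A or cyclin B, and it ends when the anaphase-promoting complex marks the cyclins for destruction. Most of the proteins that build the spindle, attach chromosomes to it and cut the cell in 2 are made from messages that accumulate late in the cycle and are scarce in resting cells. In fetal muscle, progenitors and early myoblasts divide, whereas cells that turn on myogenin and fuse leave the cycle for good, so in a sorted population such messages come from the part that still divides. In bulk RNA, fewer dividing cells and less of a message per cell cannot be told apart.

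G2/M promoters are known for a cell cycle homology region, commonly written TTTGAA, and for CCAAT boxes, which bind NF-Y. Through the homology region the DREAM complex represses these genes in resting cells, and complexes of B-Myb and FoxM1 activate them in dividing cells. The RefSeq promoter table (GRCm38.p6, the assembly of mm10) holds 29 of the 34 genes, with 250 bases before and 50 after each annotated start. TTTGAA was found on either strand in 24 of the 29 (82.8%), against 5466 of all 27025 genes in the table (20.2%) and 14.4% of the 8880 genes in it that were also tested for expression here. A close variant, TTCGAA, was found in 3 of the 29 (10.3%, against 1.8% of all genes and 2.57% of those tested). CCAAT was found in 23 of the 29 (79.3%, against 41.1% of all genes and 44.1% of those tested). Of the 29, 17 had 2 or more CCAAT boxes (58.6%, against 13.3% and 17.6%). CCAAT stood together with TTTGAA or TTCGAA in 21 of the 29 (72.4%, against 8.61% of all genes and 7.12% of those tested). The letters mark matches and not occupied sites, and base composition was not compared. The 250 bases before the annotated start are printed for both B-type cyclin genes, Ccnb1 (chr13:100786487-100786736, minus strand) and Ccnb2 (chr9:70421555-70421804, minus strand), for their partner kinase gene Cdk1 (chr10:69352913-69353162, minus strand), and for Ube2c (chr2:164769679-164769928, plus strand), the most abundant of the 34 messages. Capitals mark TTTGAA and CCAAT on either strand (TTCAAA and ATTGG on the other). TTCGAA was not found in any of the 4.
Ccnb1: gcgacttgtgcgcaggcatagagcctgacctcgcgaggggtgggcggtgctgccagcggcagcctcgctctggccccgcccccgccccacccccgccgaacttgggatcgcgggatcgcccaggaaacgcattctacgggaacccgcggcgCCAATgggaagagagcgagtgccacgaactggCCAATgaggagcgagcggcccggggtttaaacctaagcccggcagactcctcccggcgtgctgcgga
Ccnb2: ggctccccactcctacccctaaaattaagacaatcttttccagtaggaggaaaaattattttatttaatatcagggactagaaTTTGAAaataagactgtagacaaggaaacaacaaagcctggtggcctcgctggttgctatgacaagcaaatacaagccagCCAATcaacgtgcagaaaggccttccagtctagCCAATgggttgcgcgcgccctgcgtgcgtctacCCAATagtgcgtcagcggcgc
Cdk1: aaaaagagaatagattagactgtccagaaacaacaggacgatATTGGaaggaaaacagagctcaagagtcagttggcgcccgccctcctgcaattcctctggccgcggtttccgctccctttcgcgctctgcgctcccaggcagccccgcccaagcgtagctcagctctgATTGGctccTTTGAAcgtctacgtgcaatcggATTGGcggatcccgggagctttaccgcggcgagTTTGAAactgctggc
Ube2c: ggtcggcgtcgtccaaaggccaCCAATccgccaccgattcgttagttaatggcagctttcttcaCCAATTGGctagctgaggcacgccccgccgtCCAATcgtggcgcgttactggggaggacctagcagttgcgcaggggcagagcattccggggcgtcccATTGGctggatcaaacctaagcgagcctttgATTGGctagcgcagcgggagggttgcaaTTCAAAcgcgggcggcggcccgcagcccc
In Ccnb1 the CCAAT boxes begin 99 and 67 bases before the start, and neither TTTGAA nor TTCGAA is in this window. In Ccnb2 there are 3 CCAAT boxes, at 87, 54 and 21 bases, with TTTGAA at 167 bases and another TTTGAA at or past the start that is not printed. In Cdk1 TTTGAA begins 71 and 15 bases before the start, with CCAAT boxes at 208, 80 and 48 bases. In Ube2c TTTGAA (read on the other strand) lies at 29 bases, with 6 CCAAT boxes between 228 and 57 bases, the pair at 186 and 183 bases overlapping on opposite strands. No measurement of factor binding is part of these data.

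Library totals inferred from the RPKM values were 20740000 to 28830000 reads. Each value of the 34 genes rested on 599 to 12920 reads, so counting error is small beside the larger differences between libraries. It is not small beside the narrowest gaps, such as Anln at 9.84 RPKM in WT Em2 and 9.76 RPKM in Notch1 cKO Em8 (1302 and 1352 reads). Together the 34 genes took 0.535% to 0.603% of a library's reads. In the library labelled Notch1 cKO, Notch1 stood at 2.33 RPKM, against 7.26 and 13.5 RPKM in WT. Notch2 stood at 2.40 and 4.17 RPKM in WT, 3.90 RPKM in Notch1 cKO, and 3.35 and 2.03 RPKM in Notch2 cKO, so the Notch2 cKO and WT libraries overlapped for the targeted gene. The labels do not say which exons either floxed allele loses, so gene-level values are a weak check of both labels. The muscle genes Myog (944 to 1737 RPKM) and Myod1 (109 to 188 RPKM) were high in all 5 libraries. Of the genes marking cells that the lineage gate removes, endothelial Cdh5 and leukocyte Ptprc were at or below 0.145 RPKM, while endothelial Tek was at 2.98 to 5.10 RPKM and leukocyte Cd68 at 5.13 to 9.64 RPKM. The cartilage gene Matn1 was at 24.2 RPKM in Notch2 cKO Em4, against 0.12 to 2.38 RPKM elsewhere. The haemoglobin gene Hba-a1 was at 347 RPKM in Notch1 cKO Em8, against 179.7 and 252 RPKM in WT and 101 and 89.0 RPKM in Notch2 cKO.

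The 34 messages were present at substantial levels in every library, and all of them passed the filter of a mean of at least 1 RPKM. The lowest, Ttk, had a mean of 9.84 RPKM, above 49.7% of the 11543 genes tested, and the highest, Ube2c, a mean of 458 RPKM, above 97.7%. Across the 5 libraries the highest value of a gene was between 1.13 times (Cdca3) and 2.84 times (Kif20a) the lowest. Summed over the 34 genes the level was 2347 and 2352 RPKM in WT, 2213 RPKM in Notch1 cKO, and 2450 and 2476 RPKM in Notch2 cKO. The Notch1 cKO library was thus the lowest in the sum and both Notch2 cKO libraries were the highest, with WT between them. This order is that of unscaled sums, in which abundant genes weigh most. The median of the 34 genes was lowest in WT Em2, at 29.2 RPKM. It was 33.0 RPKM in WT Em4, 30.0 RPKM in Notch1 cKO, and 37.1 and 36.2 RPKM in Notch2 cKO. The sum over all named genes also differed, from 599009 RPKM in Notch2 cKO Em4 to 745524 RPKM in WT Em2.

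**Figure D1:**
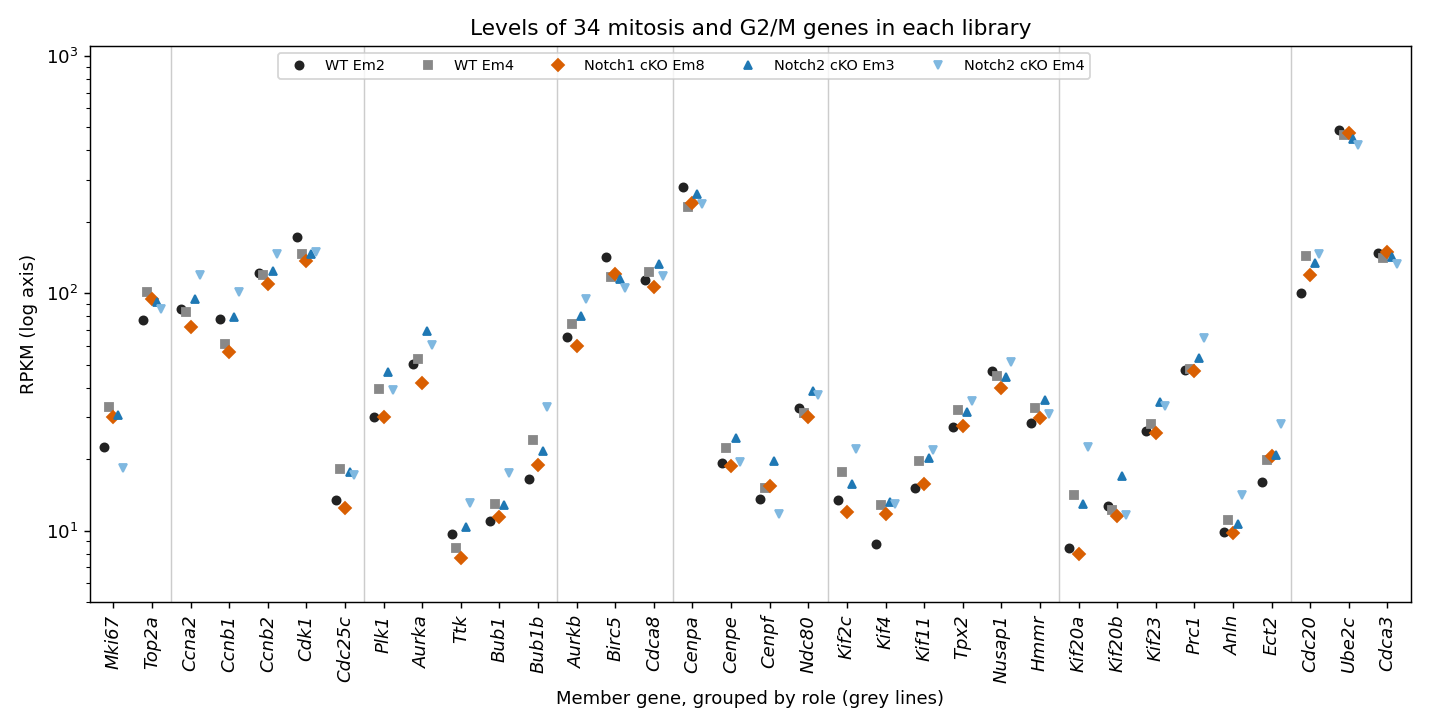
Level of each of the 34 genes in each library, as RPKM on a log axis, with genes grouped by role between grey lines and 1 symbol per library (2 WT, 1 Notch1 cKO, 2 Notch2 cKO). Most genes span less than 2-fold between libraries; Kif20a has the widest span, from 7.94 to 22.6 RPKM, and Ube2c the highest level.

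The design asks whether losing Notch2 in the Pax7 lineage alters expression at this stage, and whether losing Notch1 does. None of the 34 genes passed the limma test in Notch2 cKO against WT or in Notch1 cKO against WT (smallest adjusted p = 0.664 and 1). In the background, 0.537% of 11543 genes passed in the first comparison and 0.0693% in the second. None of the 34 had an unadjusted p under 0.05 in either, against 881 and 213 of all 11543 genes. A second test, limma voom applied to recovered reads, also called none of them. There 1 and 0 of the 34 had an unadjusted p under 0.05, against 802 and 162 of all 11541 genes. The directions of the uncalled differences were uneven: 28 of 34 were above 0 in Notch2 cKO (82.4%, against 68.1% of all genes) and 7 of 34 in Notch1 cKO (20.6%, against 51.5%). The median difference on the log2(RPKM + 1) scale was 0.22 in Notch2 cKO, where the median of all genes was 0.14, and −0.09 in Notch1 cKO, where it was 0.01. After median-of-ratios scaling, 18 of 34 were above 0 in Notch2 cKO and their median was 0.01, with the median of all genes at −0.04, so the count above 0 depends on where a scaling sets all genes. Set against the median of all genes in the unscaled fit, 22 of 34 lay above it in Notch2 cKO and 6 of 34 in Notch1 cKO. In Notch1 cKO the count above 0 was 5 after median-of-ratios scaling and 13 without WT Em4. Without WT Em4 the median was −0.03, with the median of all genes at 0.10.

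The 2 knockouts were also set against each other. None of the 34 genes passed limma's test (smallest adjusted p = 0.338, for Kif20a), against 0.485% of all genes. Kif20a and Ccnb1 had an unadjusted p under 0.05, as did 1000 of all 11543 genes. The recovered reads also gave no call (limma voom, 1 gene at an unadjusted p under 0.05, against 877 of all 11541 genes). The median difference of Notch2 cKO minus Notch1 cKO was 0.28, with 28 of 34 above 0 (61.8% of all genes), against 0.12 over all genes. This comparison and both others share libraries, so their values are not independent of each other.

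The intervals bound the size of a difference. The 95% interval lay within 2-fold in both directions for 33 of 34 genes in Notch2 cKO against WT, Kif20a being the exception, and for 31 of 34 in Notch1 cKO against WT, the exceptions being Kif20a, Kif2c and Cdc25c. In Notch2 cKO against Notch1 cKO it did so for 19 of 34. The bound does not hold for every processing, and these counts were not repeated for the alternatives. With the libraries scaled to equal sums of RPKM, Anln in Notch2 cKO against WT was 0.37 (SE 0.40), against 0.21 (SE 0.30) unscaled. Its interval then passed 2-fold. These intervals borrow their spread from all genes (103.8 prior degrees of freedom beside 2 residual ones), and they take the variance of the single Notch1 cKO library to be that of the other groups.

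**Figure D2:**
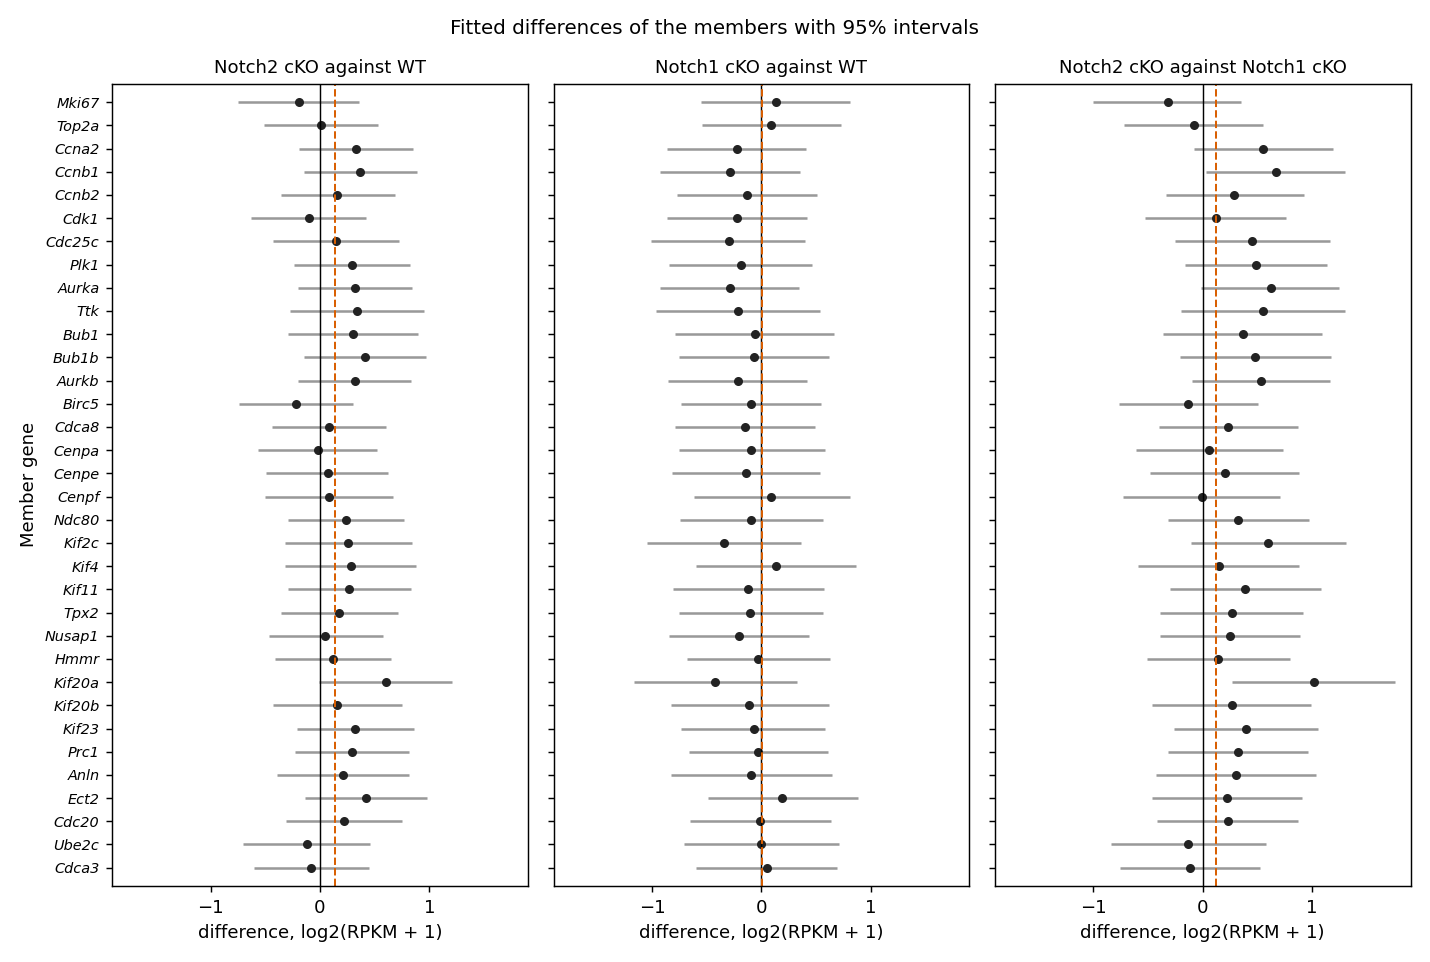
Fitted difference of each gene on the log2(RPKM + 1) scale (point) with its 95% interval (bar) in the 3 comparisons; the dashed line is the median of all genes tested. Most intervals cross 0. In the right panel those of Kif20a and Ccnb1 do not, and neither gene passed after adjustment.

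Whether the groups overlapped was counted gene by gene. Both Notch2 cKO libraries lay above both WT libraries for 12 of 34 genes (35.3%, against 28.3% of all genes) and below both for Birc5 and Ube2c (5.88%, against 9.44%), shares that are near the background. Notch1 cKO Em8 lay below both WT libraries for 18 of 34 (52.9%, against 26.1%) and above both for Cenpf, Ect2 and Cdca3 (8.82%, against 24.3%). Notch1 cKO Em8 was the lowest of all 5 libraries for the same 18 genes, a place it took for 21.4% of all genes. WT Em2 was lowest for 10 of the 34 (41.5% of all genes), Notch2 cKO Em4 for 5 (19.9%), WT Em4 for 1 (8.83%) and Notch2 cKO Em3 for none (8.36%). Notch2 cKO Em4 was highest for 16 (33.3%), Notch2 cKO Em3 for 10 (25.4%), WT Em2 for 4 (12.7%), WT Em4 for 3 (16.7%) and Notch1 cKO Em8 for 1 (11.9%). Both Notch2 cKO libraries lay above Notch1 cKO Em8 for 27 of 34 genes (79.4%, against 47.7%) and below it for Top2a, Birc5, Ube2c and Cdca3 (11.8%, against 25.2%). For 9 genes the 3 groups stood in full order, with Notch1 cKO below both WT libraries and both Notch2 cKO libraries above them: Ccna2, Ccnb1, Ccnb2, Aurka, Ttk, Aurkb, Ndc80, Kif23 and Prc1 (26.5%, against 10.3% of all genes). The 34 genes are co-expressed and share 1 Notch1 cKO library, so these counts describe that library, with no test. Some of the orders rest on narrow gaps, as for Prc1 at 46.9 RPKM in Notch1 cKO Em8 and 47.6 RPKM in WT Em2.

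The cyclins and the Cdk1 switch set entry into mitosis. Ccnb1, the gene of cyclin B1, the main partner of Cdk1, was 77.99 and 61.2 RPKM in WT, 56.3 in Notch1 cKO and 79.7 and 101 in Notch2 cKO. It was highest in Notch2 cKO Em4 and lowest in Notch1 cKO Em8, and the 3 groups did not overlap. Its difference was 0.37 in Notch2 cKO against WT (limma adjusted p = 0.759, SE 0.26), −0.29 in Notch1 cKO against WT (adjusted p = 1, SE 0.32) and 0.67 between the knockouts (adjusted p = 0.547, SE 0.32). The gap between the WT libraries, 0.34, was nearly as large as the first of these. Ccnb2, the gene of the second B-type cyclin, measured 121 and 119 RPKM in WT, 109.5 in Notch1 cKO and 124 and 147 in Notch2 cKO, in the same order of groups over a narrower range. Ccna2, the gene of cyclin A2, which acts from S phase to early mitosis, stood at 85.6 and 83.1 RPKM in WT, 72.2 in Notch1 cKO and 94.6 and 119.7 in Notch2 cKO, again with the groups apart and the WT libraries close together. Cdk1, the gene of the kinase itself, was 172 and 146 RPKM in WT, 136 in Notch1 cKO and 146 and 149.8 in Notch2 cKO. It did not share the order of its cyclins: WT Em2 was highest, Notch1 cKO Em8 lowest, and both Notch2 cKO libraries lay near WT Em4. Its difference in Notch2 cKO against WT was −0.10 (limma adjusted p = 0.948, SE 0.27). Cdc25c, the gene of a phosphatase that activates Cdk1, measured 13.4 and 18.2 RPKM in WT, 12.46 in Notch1 cKO and 17.7 and 17.2 in Notch2 cKO, low in Notch1 cKO Em8 and WT Em2 and higher in the other 3 libraries. Summed over these 5 genes the level was 469.97 and 428 RPKM in WT, 387 RPKM in Notch1 cKO, and 461 and 535 RPKM in Notch2 cKO.

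Mitotic kinases build the spindle and run its checkpoint, which delays anaphase until every chromosome is attached. Aurka, the gene of the centrosome and spindle kinase Aurora A, stood at 50.2 and 52.9 RPKM in WT, 41.8 in Notch1 cKO and 68.97 and 60.5 in Notch2 cKO, with all 3 groups apart. Its difference was 0.32 in Notch2 cKO against WT (limma adjusted p = 0.81, SE 0.26), −0.29 in Notch1 cKO against WT (adjusted p = 1, SE 0.32) and 0.62 between the knockouts (adjusted p = 0.607, SE 0.32). Plk1, the gene of Polo-like kinase 1, was 30.04 and 39.6 RPKM in WT, 30.1 in Notch1 cKO and 46.4 and 38.9 in Notch2 cKO. WT Em2 and Notch1 cKO Em8 were alike and the other 3 libraries higher, so Notch2 cKO and WT overlapped. Ttk, the gene of Mps1, the kinase that starts checkpoint signalling, measured 9.67 and 8.41 RPKM in WT, 7.66 in Notch1 cKO and 10.3 and 13.1 in Notch2 cKO, with the groups apart at the lowest level of the 34 genes. Bub1, the gene of another checkpoint kinase, stood at 11.002 and 12.9 RPKM in WT, 11.4 in Notch1 cKO and 12.8 and 17.4 in Notch2 cKO, and Notch2 cKO Em4 alone stood out. Bub1b, the gene of BubR1, part of the inhibitor of the anaphase-promoting complex, was 16.4 and 24.1 RPKM in WT, 18.98 in Notch1 cKO and 21.7 and 33.2 in Notch2 cKO. Notch2 cKO Em4 was again high, while WT Em4 exceeded Notch2 cKO Em3. The Bub1b difference in Notch2 cKO against WT was 0.41 (limma adjusted p = 0.754, SE 0.28), below the gap of 0.59 between the Notch2 cKO libraries. In Notch1 cKO against WT it was −0.07 (limma adjusted p = 1, SE 0.35), and between the knockouts 0.48 (adjusted p = 0.742, SE 0.35).

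The chromosomal passenger complex corrects wrong attachments and steers cytokinesis, and its 3 genes did not share 1 order of libraries. Aurkb, the gene of its kinase, Aurora B, measured 65.4 and 74.4 RPKM in WT, 59.98 in Notch1 cKO and 80.3 and 94.4 in Notch2 cKO, with the groups apart and Notch2 cKO highest. Birc5, the gene of survivin, stood at 141 and 117 RPKM in WT, 121 in Notch1 cKO and 115 and 106 in Notch2 cKO. Here the order was the other way, with both Notch2 cKO libraries below both WT libraries. Cdca8, the gene of borealin, was 114 and 122 RPKM in WT, 106 in Notch1 cKO and 133 and 118 in Notch2 cKO, with Notch2 cKO and WT overlapping. The summed level of the 3 genes was 287 RPKM in Notch1 cKO Em8 and between 314 and 329 RPKM in the other libraries.

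Centromere and kinetochore genes encode the platform that ties chromosomes to microtubules. Cenpa, the gene of CENP-A, the histone variant on which the kinetochore is built, measured 279.7 and 230.1 RPKM in WT, 239 in Notch1 cKO and 261 and 238 in Notch2 cKO, with the WT pair at both extremes and every other library between. Ndc80, the gene of the protein that holds microtubule ends, stood at 32.9 and 31.2 RPKM in WT, 30.1 in Notch1 cKO and 38.8 and 37.2 in Notch2 cKO, with the groups apart over a narrow range. Cenpe, the gene of a kinetochore motor, was 19.3 and 22.3 RPKM in WT, 18.8 in Notch1 cKO and 24.4 and 19.4 in Notch2 cKO, highest in Notch2 cKO Em3 and overlapping between Notch2 cKO and WT. Cenpf, the gene of a large kinetochore protein, measured 13.6 and 15.1 RPKM in WT, 15.4 in Notch1 cKO and 19.7 and 11.7 in Notch2 cKO. Here the Notch2 cKO libraries took the highest and the lowest place of the 5, so that their mean describes neither.

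For spindle motors and microtubule-binding proteins the lowest library was Notch1 cKO Em8 or WT Em2 in all 6 genes. Kif2c, the gene of a kinesin that takes microtubules apart at centromeres, stood at 13.4 and 17.7 RPKM in WT, 11.9 in Notch1 cKO and 15.7 and 22.00 in Notch2 cKO, lowest in Notch1 cKO Em8. Its difference was −0.34 in Notch1 cKO against WT (limma adjusted p = 1, SE 0.36), 0.26 in Notch2 cKO against WT (adjusted p = 0.858, SE 0.29) and 0.60 between the knockouts (adjusted p = 0.658, SE 0.36). Kif11, the gene of Eg5, the motor that pushes spindle poles apart, was 15.2 and 19.6 RPKM in WT, 15.7 in Notch1 cKO and 20.1 and 21.9 in Notch2 cKO, with both Notch2 cKO libraries just above WT Em4. Kif4, the gene of a chromosome-bound kinesin, measured 8.77 and 12.8 RPKM in WT, 11.7 in Notch1 cKO and 13.2 and 12.96 in Notch2 cKO, where WT Em2 alone was low. Tpx2, the gene of an activator of Aurora A, stood at 27.2 and 32.1 RPKM in WT, 27.6 in Notch1 cKO and 31.6 and 35.3 in Notch2 cKO, with WT Em2 and Notch1 cKO Em8 lowest. Nusap1, the gene of a spindle protein that binds microtubules, was 46.9 and 44.9 RPKM in WT, 39.9 in Notch1 cKO and 44.4 and 51.2 in Notch2 cKO, with Notch1 cKO Em8 lowest. Hmmr, the gene of a spindle protein that is also a hyaluronan receptor, measured 28.3 and 32.8 RPKM in WT, 29.9 in Notch1 cKO and 35.5 and 30.99 in Notch2 cKO, with WT and Notch2 cKO overlapping. All 6 genes had a difference above 0 in Notch2 cKO against WT, with a median of 0.21, and none passed.

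Midzone and cytokinesis genes, which split the cell, held the widest range. Kif20a, the gene of a kinesin that brings Aurora B to the midzone, stood at 8.43 and 14.1 RPKM in WT, 7.94 in Notch1 cKO and 12.9 and 22.6 in Notch2 cKO. Notch2 cKO Em4 was more than 2-fold higher than Notch1 cKO Em8 or WT Em2, while Notch2 cKO Em3 lay between the WT libraries. The difference was 0.60 in Notch2 cKO against WT (limma adjusted p = 0.664, SE 0.31), −0.42 in Notch1 cKO against WT (adjusted p = 1, SE 0.38) and 1.02 between the knockouts (adjusted p = 0.338, SE 0.38, interval 0.27 to 1.76). The WT libraries of Kif20a were 0.68 apart and the Notch2 cKO libraries 0.76 apart on the same scale, each more than the difference between those groups. Kif20b, the gene of a related kinesin, was 12.7 and 12.3 RPKM in WT, 11.5 in Notch1 cKO and 16.95 and 11.6 in Notch2 cKO, with Notch2 cKO Em3 high and the other 4 libraries close together. Kif23, the gene of the centralspindlin motor, measured 26.3 and 28.03 RPKM in WT, 25.7 in Notch1 cKO and 34.8 and 33.6 in Notch2 cKO, with both Notch2 cKO libraries close together above WT. Prc1, the gene of the protein that bundles midzone microtubules, stood at 47.6 and 48.00 RPKM in WT, 46.9 in Notch1 cKO and 53.5 and 64.7 in Notch2 cKO. The WT pair and Notch1 cKO Em8 were close and both Notch2 cKO libraries higher. Ect2, the gene of the exchange factor that activates RhoA at the cleavage site, was 16.03 and 19.9 RPKM in WT, 20.6 in Notch1 cKO and 20.8 and 28.1 in Notch2 cKO. WT Em2 was lowest, and Notch1 cKO Em8 lay above both WT libraries and below both Notch2 cKO libraries. The Ect2 difference was 0.42 in Notch2 cKO against WT (limma adjusted p = 0.754, SE 0.28), 0.19 in Notch1 cKO against WT (adjusted p = 1, SE 0.34) and 0.22 between the knockouts (adjusted p = 0.908, SE 0.34). Anln, the gene of the cleavage-furrow protein anillin, measured 9.84 and 11.1 RPKM in WT, 9.76 in Notch1 cKO and 10.7 and 14.1 in Notch2 cKO, with Notch2 cKO Em4 alone high. All 6 genes were above 0 in Notch2 cKO against WT, with a median of 0.31, and none passed.

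Genes of mitotic protein destruction included the most even of the 34. Ube2c, the gene of the ubiquitin-conjugating enzyme of the anaphase-promoting complex, stood at 485 and 462 RPKM in WT, 475 in Notch1 cKO and 447 and 422 in Notch2 cKO, with both Notch2 cKO libraries slightly below the others. Cdca3, the gene of a protein that promotes entry into mitosis through destruction of the kinase Wee1, was 148 and 141 RPKM in WT, 149 in Notch1 cKO and 142 and 132 in Notch2 cKO, over the narrowest range of all 34 genes. Cdc20, the gene of an activator of the anaphase-promoting complex, measured 100.2 and 143 RPKM in WT, 119 in Notch1 cKO and 134 and 146 in Notch2 cKO. WT Em2 was lowest and the WT libraries spanned most of the range. The summed level of these 3 genes was 700.3 to 746 RPKM in the 5 libraries.

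In the usual markers of proliferation, Mki67 and Top2a, Notch2 cKO and WT overlapped. Mki67, the gene of Ki-67, which coats mitotic chromosomes, stood at 22.5 and 33.2 RPKM in WT, 30.00 in Notch1 cKO and 30.7 and 18.3 in Notch2 cKO. Its lowest values came from Notch2 cKO Em4 and WT Em2. The difference was −0.19 in Notch2 cKO against WT (limma adjusted p = 0.895, SE 0.28), 0.13 in Notch1 cKO against WT (adjusted p = 1, SE 0.34) and −0.32 between the knockouts (adjusted p = 0.85, SE 0.34). Top2a, the gene of the topoisomerase that untangles chromosomes, was 77.1 and 101 RPKM in WT, 94.3 in Notch1 cKO and 92.2 and 85.9 in Notch2 cKO. The WT libraries took both extremes, and both Notch2 cKO libraries lay below Notch1 cKO Em8. Its differences were 0.01, 0.09 and −0.08 in the same 3 comparisons (limma adjusted p = 0.994, 1 and 0.969; SE 0.26, 0.32 and 0.32). For Cdk1 the difference was −0.22 in Notch1 cKO against WT (limma adjusted p = 1, SE 0.32) and 0.12 between the knockouts (adjusted p = 0.954, SE 0.32). Signs of the Mki67, Top2a and Cdk1 differences turn under some scalings or without 1 library, as the closing section lists.

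Libraries of 1 group also differed from each other. These gaps compare single libraries, whereas the fitted differences use group means. The median absolute difference of the 34 genes was 0.21 between the WT libraries and 0.22 between the Notch2 cKO libraries on the log2(RPKM + 1) scale, against 0.32 and 0.26 over all genes. The difference of Notch2 cKO against WT exceeded the same gene's gap in both pairs of libraries in 8 of 34 genes, against 23.5% of all genes. The difference of Notch1 cKO against WT exceeded the same gene's gap between the WT libraries in 10 of 34 genes, against 30.3% of all genes. Within the WT pair the extremes were Kif20a (−0.68 for WT Em2 minus WT Em4) and Ccnb1 (0.34). Within the Notch2 cKO pair they were Mki67 (−0.72 for Em4 minus Em3) and Kif20a (0.76).

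Some of this spread followed gene length. The length used for RPKM, recovered from the values, ran from 931 bases for Ube2c to 11130 bases for Cenpf, with a median of 3064 bases (2629 bases over all genes tested). The difference of WT Em2 minus WT Em4 had a Spearman's rho of −0.39 with length across the 34 genes and −0.48 across all genes, which are not independent replicates and share the 2 libraries. It had a median of 0.03 in the shorter 17 genes and −0.21 in the longer 17. For Notch2 cKO Em4 minus Em3 the rho was −0.08 across the 34 genes and −0.09 across all genes, with medians of 0.04 in the shorter 17 and −0.02 in the longer 17, so little trend was seen over the whole range. At the long end of the Notch2 cKO pair, the 4 genes over 5500 bases (Mki67, Cenpe, Cenpf and Kif20b, a bound chosen after the values were seen) were all lower in Em4 than in Em3, with a median of −0.61. Over all 1437 genes tested of that length the median was −0.30, with 81.5% below 0, against −0.01 for genes of any length. In the WT pair the same 4 genes had a median of −0.17 (3 of 4 below 0), against −0.41 over all genes of that length. Length moved with the low Mki67 and Cenpf values of Notch2 cKO Em4, and its part in them was not tested. With the length trend removed from each library, none of the 34 genes passed and the median difference in Notch2 cKO against WT was 0.05, against 0.00 over all genes. In Notch1 cKO against WT it was −0.12, against −0.02 over all genes.

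**Figure D3:**
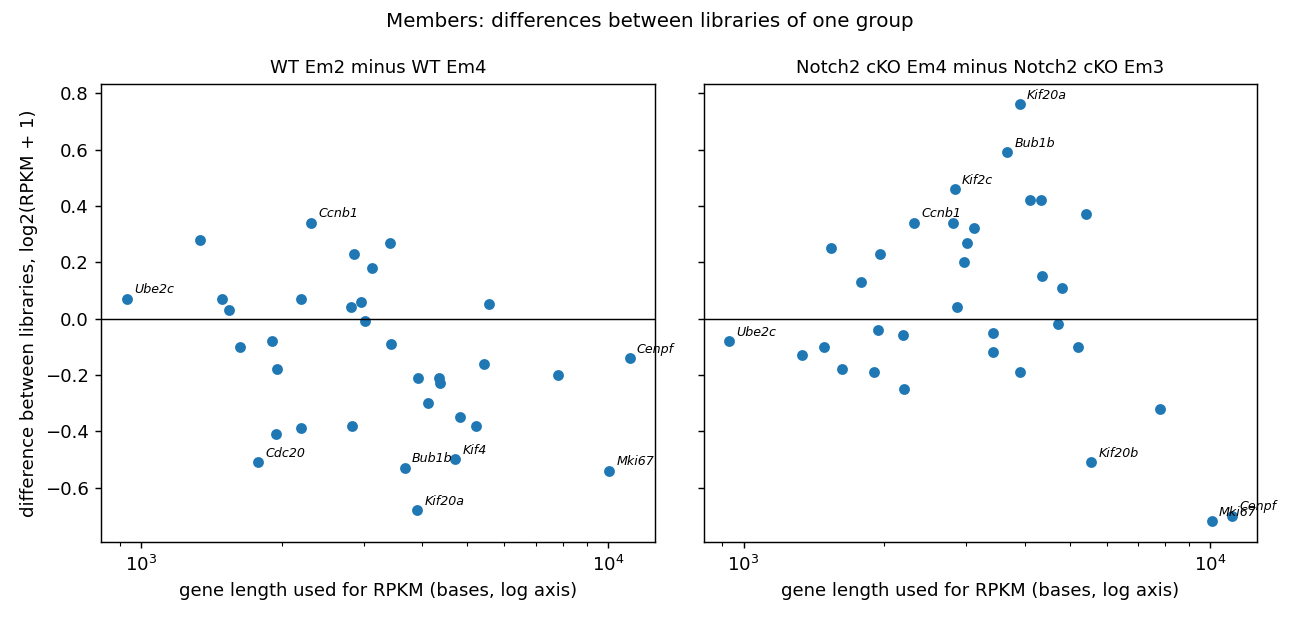
Difference between the 2 libraries of a group for each of the 34 genes, on the log2(RPKM + 1) scale, against the gene length used for RPKM on a log axis. In the WT pair the longer genes tend to lie below 0, and in the Notch2 cKO pair Mki67 and Cenpf, the longest, are among the lowest points while Kif20a is the highest.

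Each column name ends in digits of unstated meaning, and 2 differences between groups can be taken within equal digits. Notch2 cKO Em4 and WT Em4 share theirs, and 22 of 34 genes were higher in the knockout, with a median of 0.14 against 0.03 over all genes. The range was −0.83 for Mki67 to 0.72 for Ccnb1. Notch2 cKO Em3 and Notch1 cKO Em8 also share theirs, and 30 of 34 genes were higher in Notch2 cKO, with a median of 0.21 against 0.13 over all genes. The range was −0.08 for Ube2c to 0.71 for Aurka. In both pairs the median over all genes was above 0, so most genes were higher as well, and their share was not counted. These are single libraries on each side and have no test. No Notch1 cKO library shares its digits with a WT library, so for that comparison digits and genotype cannot be told apart.

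Other genes of the cell cycle were read from lists chosen for their roles, naming from each the 3 genes of smallest p per comparison. Of 64 further G2/M genes, all tested, none passed in Notch2 cKO against WT (54 above 0, median 0.19) or in Notch1 cKO against WT (24 above 0, median −0.05). Between the knockouts 54 were above 0 (median 0.26) and 1 passed: Kifc1, the gene of a minus-end spindle kinesin, which was higher in Notch2 cKO than in Notch1 cKO by 1.53 on the log2 scale (limma adjusted p = 0.0473, SE 0.40). Kifc1 measured 7.43 and 3.79 RPKM in WT, 3.15 in Notch1 cKO and 14.8 and 8.08 in Notch2 cKO, and Notch2 cKO Em4 lay close to WT Em2. Its limma adjusted p was 0.542 when Notch2 cKO Em3 was left out, 0.0641 when Notch2 cKO Em4 was, 0.0575 for WT Em2 and 0.0492 for WT Em4. Over all alternatives it ranged from 0.0108 to 0.821, and reads could be shared with the close copy Kifc5b, so the call is uncertain. Wee1, the gene of the kinase that restrains Cdk1, stood at 11.3 and 13.3 RPKM in WT, 14.4 in Notch1 cKO and 22.6 and 16.6 in Notch2 cKO, higher in both Notch2 cKO libraries than elsewhere. Nek2, the gene of a centrosome kinase, was 9.52 and 13.9 RPKM in WT, 9.59 in Notch1 cKO and 15.9 and 19.5 in Notch2 cKO, with the same order. Ncapg, the gene of a condensin subunit, measured 18.4 and 16.52 RPKM in WT, 13.04 in Notch1 cKO and 22.5 and 26.1 in Notch2 cKO, lowest in Notch1 cKO Em8 and highest in Notch2 cKO. Zwint, the gene of a kinetochore protein, stood at 32.1 and 31.00 RPKM in WT, 23.2 in Notch1 cKO and 30.2 and 33.8 in Notch2 cKO, where Notch1 cKO Em8 alone was low. Pttg1, the gene of securin, was 22.2 and 15.3 RPKM in WT, 25.2 in Notch1 cKO and 24.4 and 23.2 in Notch2 cKO, where WT Em4 alone was low.

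Of 49 genes of G1/S and DNA replication, the phases before G2, none passed in any comparison. In Notch2 cKO against WT 30 were above 0 (median 0.03), in Notch1 cKO against WT 9 (median −0.16), and between the knockouts 37 (median 0.16). The median of Notch1 cKO Em8 relative to all genes was −0.12 for the 34 genes and −0.12 for this list, the lowest of the 5 libraries in both. For the 64 further G2/M genes it was −0.08, next to −0.07 in WT Em4, so in that list Notch1 cKO Em8 did not stand apart. Rrm2, the gene of a ribonucleotide reductase subunit, measured 97.7 and 109.9 RPKM in WT, 68.9 in Notch1 cKO and 109.8 and 161 in Notch2 cKO, lowest in Notch1 cKO Em8. Ccne2, the gene of cyclin E2, stood at 15.7 and 10.7 RPKM in WT, 8.29 in Notch1 cKO and 13.2 and 21.9 in Notch2 cKO, in which Notch1 cKO Em8 was also lowest. Slbp, the gene of the histone message binding protein, was 210.3 and 174 RPKM in WT, 145 in Notch1 cKO and 245 and 236 in Notch2 cKO, with the same library lowest. Mcm2, the gene of a helicase subunit, measured 18.6 and 33.3 RPKM in WT, 20.3 in Notch1 cKO and 28.7 and 54.9 in Notch2 cKO, highest in Notch2 cKO Em4. Orc1, the gene of an origin-binding protein, stood at 3.26 and 3.35 RPKM in WT, 3.17 in Notch1 cKO and 4.56 and 6.39 in Notch2 cKO, with both Notch2 cKO libraries highest. Rpa3, the gene of a subunit of the single-strand binding protein, was 290.2 and 176 RPKM in WT, 236 in Notch1 cKO and 136 and 182 in Notch2 cKO, where WT Em2 was highest and the groups overlapped.

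Of 22 regulators of these promoters (FoxM1, B-Myb and MuvB components, E2F, pocket proteins and NF-Y), none passed in any comparison, with medians of 0.22 in Notch2 cKO against WT, −0.01 in Notch1 cKO against WT and 0.20 between the knockouts. Tfdp1, the gene of the partner of E2F proteins, measured 35.7 and 41.8 RPKM in WT, 27.95 in Notch1 cKO and 50.1 and 77.3 in Notch2 cKO. It had the smallest p of this list between the knockouts (1.13, limma adjusted p = 0.115, SE 0.33), with Notch1 cKO Em8 lowest and both Notch2 cKO libraries highest. Rb1, the gene of the retinoblastoma protein, stood at 12.97 and 14.8 RPKM in WT, 13.5 in Notch1 cKO and 23.5 and 21.4 in Notch2 cKO, higher in both Notch2 cKO libraries than in the other 3. E2f8, the gene of a repressor of E2F targets, was 6.93 and 8.83 RPKM in WT, 7.91 in Notch1 cKO and 14.1 and 11.5 in Notch2 cKO, with Notch2 cKO likewise apart from the rest. Lin9, the gene of a MuvB subunit, measured 6.36 and 7.46 RPKM in WT, 5.33 in Notch1 cKO and 8.55 and 11.2 in Notch2 cKO, lowest in Notch1 cKO Em8. E2f2, the gene of an activating E2F, stood at 14.4 and 22.9 RPKM in WT, 22.4 in Notch1 cKO and 28.8 and 21.9 in Notch2 cKO, where WT Em2 alone was low. Nfya, the gene of a subunit of NF-Y, was 1.19 and 1.08 RPKM in WT, 1.92 in Notch1 cKO and 1.61 and 1.57 in Notch2 cKO, at a low level in all 5 libraries.

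Of 15 genes of cell cycle exit, 13 were tested and none passed, with medians of 0.10 in Notch2 cKO against WT, 0.06 in Notch1 cKO against WT and 0.03 between the knockouts. Cdkn2c, the gene of the Cdk inhibitor p18, measured 23.5 and 27.5 RPKM in WT, 36.7 in Notch1 cKO and 23.2 and 19.9 in Notch2 cKO, highest in Notch1 cKO Em8. Cdkn1b, the gene of p27, stood at 4.55 and 5.08 RPKM in WT, 7.86 in Notch1 cKO and 5.29 and 2.73 in Notch2 cKO, also highest there. Cdkn1a, the gene of p21, a target of p53 and MyoD, was 303 and 343 RPKM in WT, 444 in Notch1 cKO and 484 and 389 in Notch2 cKO, highest in Notch2 cKO Em3 and lower in both WT libraries than elsewhere. Ccng1, the gene of cyclin G1, measured 18.5 and 26.04 RPKM in WT, 22.3 in Notch1 cKO and 25.1 and 46.5 in Notch2 cKO, with Notch2 cKO Em4 alone high. Ccng2, the gene of cyclin G2, stood at 44.9 and 43.3 RPKM in WT, 37.1 in Notch1 cKO and 53.3 and 78.01 in Notch2 cKO, with both Notch2 cKO libraries highest. Gadd45a, the gene of a growth arrest protein, was 41.5 and 32.5 RPKM in WT, 48.3 in Notch1 cKO and 62.4 and 46.96 in Notch2 cKO, highest in Notch2 cKO Em3.

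Of 17 subunits and regulators of the anaphase-promoting complex none passed, with medians of 0.08, −0.03 and 0.20 in the same 3 comparisons. Cdc23, the gene of a scaffold subunit, measured 10.5 and 13.5 RPKM in WT, 8.47 in Notch1 cKO and 15.9 and 27.3 in Notch2 cKO, lowest in Notch1 cKO Em8 and highest in Notch2 cKO. Anapc4, the gene of a second subunit, stood at 30.9 and 34.2 RPKM in WT, 22.6 in Notch1 cKO and 37.8 and 54.2 in Notch2 cKO, in the same order. Fbxo5, the gene of the inhibitor Emi1, was 43.2 and 44.3 RPKM in WT, 31.4 in Notch1 cKO and 73.5 and 44.5 in Notch2 cKO, where Notch1 cKO Em8 was low and Notch2 cKO Em3 high. Anapc13, the gene of a small subunit, measured 813 and 416 RPKM in WT, 652 in Notch1 cKO and 396 and 295 in Notch2 cKO, with both Notch2 cKO libraries lowest and Notch1 cKO Em8 between the WT libraries.

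Muscle lists and markers of other cells give the setting of these values. Of 17 muscle differentiation genes none passed, with 16 above 0 in Notch2 cKO against WT (median 0.41) and 5 in Notch1 cKO against WT (median −0.19), so that in Notch2 cKO the medians of the mitotic and of the differentiation genes were both above that of all genes. Of 15 muscle progenitor genes none passed, with medians of 0.13 and 0.23. Of 14 interstitial fibroblast markers 10 were tested, and they summed to 183 and 313 RPKM in WT, 452 RPKM in Notch1 cKO and 286 and 492 RPKM in Notch2 cKO, with Col3a1 the most abundant. Their median difference was 0.64 in Notch2 cKO against WT (9 of 10 above 0, none passing) and 0.94 in Notch1 cKO against WT (10 of 10 above 0), where Mfap5 rose, and Dpt was lower in Notch2 cKO than in Notch1 cKO. Of 11 tendon and cartilage markers 9 were tested and none passed against WT, with sums of 49.0 to 70.3 RPKM in 4 libraries and 180.3 RPKM in Notch2 cKO Em4. Erythroid markers, 10 of 12 in the table and 7 tested, summed to 1765 RPKM in Notch1 cKO Em8, 995 and 1236 RPKM in WT and 546 and 479 RPKM in Notch2 cKO, and 3 of them (Hba-a1, Hba-a2 and Hbb-b1, named because they passed) fell in Notch2 cKO against WT. Mast cell markers summed to 3.42 and 9.07 RPKM in WT, 1.29 RPKM in Notch1 cKO and 12.1 and 31.4 RPKM in Notch2 cKO, where 2 of the 3 tested (Tpsb2 and Cpa3) rose against WT. Of 15 stress and dissociation genes 2 rose in Notch2 cKO against WT, the near-identical copies Hspa1a and Hspa1b, and the sum was highest in Notch2 cKO Em3. Endothelial markers summed to 21.1 to 40.2 RPKM, most of it Egfl7, and haematopoietic markers to 15.5 to 31.4 RPKM. The part of these other cells and of stress in the levels of the 34 genes was not tested.

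**Figure D4:**
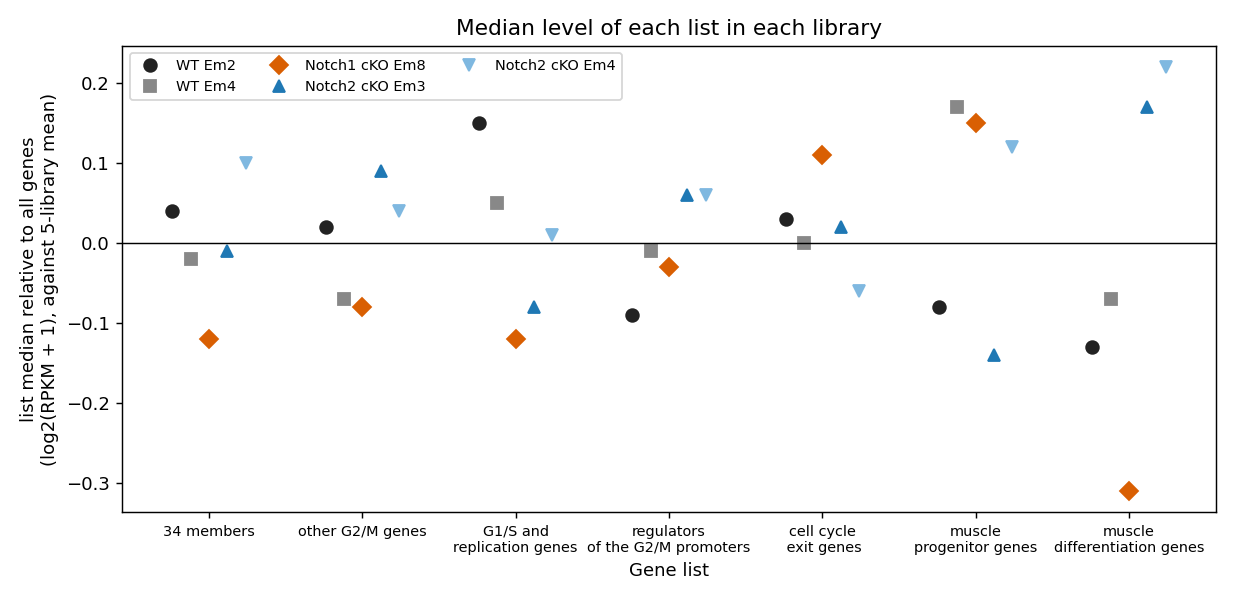
Median of each gene list in each library on the log2(RPKM + 1) scale, taken against the gene's mean over 5 libraries and relative to the median of all genes tested. For the 34 genes and the replication genes Notch1 cKO Em8 lies lowest, at −0.12, and for muscle differentiation genes it lies lowest as well while both Notch2 cKO libraries lie highest.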

How the data were processed

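Per the file headers, the authors deposited RPKM (27179 rows, 5 libraries). Processing notes of the submitters list bcl2fastq 2.20.0 and the build mm10. Aligner, counting tool, annotation and strand setting are not stated in the labels. Rows without a gene name (1306) were left out. Columns carry no replicate number and were assigned to groups by name. Read counts were recovered from the RPKM steps, and 97.6% of 6160 genes gave a whole gene length at a tolerance of 0.02. The 11543 genes whose mean reached 1 RPKM were tested on log2(RPKM + 1) with limma 3.58.1 in R 4.3.3, with 1 mean per group over all 5 libraries. P-values were two-sided and adjusted by Benjamini-Hochberg over all genes tested, at a threshold of 0.05. A fold change on this scale understates changes of low genes. The fit was run on simulated reads with the same assumed spread for every gene and no length trend between libraries. That run checks the code and does not show how the fit performs on these libraries. Alternatives covered pseudocount, filter, scaling, length trend, recovered reads and leaving out each library. The genes and all lists were chosen with earlier results of these data known. Every one of the 34 genes is described. Fitted differences are printed for the 3 of smallest p per comparison and for Mki67, Top2a and Cdk1, a choice made after the values were seen. From other cell cycle lists the 3 genes of smallest p per comparison are named. Promoters come from RefSeq (GRCm38.p6).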

Additional observations from a re-analysis of the deposited data

How the results depend on the processing

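None of the 34 genes passed under any of the 15 alternatives in Notch2 cKO against WT or the 14 in each of the other comparisons, with a smallest limma adjusted p of 0.223, 1 and 0.212. At most 2, 0 and 5 of them had an unadjusted p under 0.05. The 2 were seen with no filter, where 1693 of all 25873 genes had such a p. The 5 were seen with equal sums, where 879 of all 11543 genes did. The number of all genes called was less stable, from 0 to 287, 0 to 22 and 0 to 86. In Notch2 cKO against WT the calls were split 41 higher and 21 lower, but 41 and 40 with median-of-ratios scaling, 26 and 2 with equal sums, 3 and 1 with quantile normalization, and 52 and 235 without WT Em4. The median difference of the 34 genes in Notch2 cKO against WT was 0.01 with median-of-ratios scaling, 0.12 with quantile normalization, 0.38 with equal sums and 0.05 with the length trend removed, against 0.22. Leaving out 1 library gave 0.10 (without WT Em2) to 0.27 (without WT Em4). Between the knockouts it was 0.14, 0.18, 0.45 and 0.14 under the same 4 changes, against 0.28. The cause of these moves was not tested. Relative to all genes, the median in Notch2 cKO against WT stayed between 0.01 and 0.14. In Notch1 cKO against WT the median was −0.14 to −0.03 without 1 library. Relative to all genes it was −0.04 without WT Em2 and −0.13 without WT Em4, against −0.10 with all 5 libraries.

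Signs turned for some single genes, none of them called. In Notch2 cKO against WT up to 10 of the 34 turned under other settings (with median-of-ratios scaling) and up to 6 without 1 library. In Notch1 cKO against WT these counts were up to 4 and 8, and between the knockouts up to 5 and 2. Only genes with printed differences are listed here. In Notch2 cKO against WT, Top2a was −0.20 with median-of-ratios scaling and −0.15 with the length trend removed, and −0.18 to 0.20 without 1 library. Cdk1 was 0.07 with equal sums and −0.22 to 0.01 without 1 library, and Mki67 −0.55 to 0.16. In Notch1 cKO against WT, leaving out 1 library gave −0.33 to 0.20 for Bub1b, −0.14 to 0.40 for Mki67 and −0.10 to 0.29 for Top2a. Between the knockouts, Top2a was 0.10 with equal sums, Cdk1 −0.02 with median-of-ratios scaling and −0.14 with the length trend removed, and Mki67 −0.68 to 0.03 without 1 library. The other fitted differences printed for the 34 genes kept their sign but moved. In Notch2 cKO against WT, leaving out 1 library gave 0.22 to 0.98 for Kif20a, 0.12 to 0.71 for Bub1b, 0.21 to 0.63 for Ect2 and 0.03 to 0.49 for Kif2c, lowest without Notch2 cKO Em4 and highest without Notch2 cKO Em3. Ccnb1 was 0.20 to 0.55 and Aurka 0.23 to 0.41, and Kif2c was 0.02 with the length trend removed. In Notch1 cKO against WT, Kif20a was −0.75 without WT Em2 and −0.08 without WT Em4, Kif2c −0.53 and −0.15, and Ect2 0.04 and 0.34. Between the knockouts Kif20a was 0.63 without Notch2 cKO Em4, and Kif2c 0.37 to 0.83. In the same comparison Ect2, at 0.22, came close to 0, at 0.02 without Notch2 cKO Em4 and 0.04 with the length trend removed. No paired analysis was possible because the columns carry no replicate number, and a fit with the column-name digits as blocks would leave no residual degrees of freedom. The single Notch1 cKO library could not be left out of its own comparisons. The precision of the fitted differences is limited by the number of libraries rather than by depth.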
